A study of Mus musculus with 222 samples.

Results

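Il6, Cxcl1, Cxcl2, Ccl3, Ptgs2, Tnfaip6 and Gem are 7 of the 19938 genes measured, and were chosen because each was far lower in mammary tumors than in normal mammary glands. Each gene had 1 probe set that carried its symbol alone, and that probe set stands for it. The choice rests on the comparison of tumors with glands, so the levels on either side of it are a description here and carry no test.

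The study followed mammary tumors that arose in female MMTV-ErbB2 mice, which carry the ErbB2 protooncogene under the MMTV 3′ promoter. There were 26 tumor arrays from FVB mice, 28 from F1 mice (C57BL/6 x FVB/N) and 160 from F1BX mice, the offspring of transgene-positive F1 males and non-transgenic FVB females, and every tumor donor carried the transgene. The 8 normal glands were 3 of FVB MMTV-ErbB2 mice, 2 of F1 MMTV-ErbB2 mice and 3 of F1 wild type mice. Tumors were taken at necropsy, the labels give no age for single tumors, and mice of the backgrounds came to tumors at different ages, so age and background cannot be told apart. For the glands, age and collection are not stated, and nothing says that glands of a group came from separate mice, so p-values measure the spread between these samples, which may be technical. The MMTV promoter is active mainly in mammary epithelium, and the probes do not separate transgene from mouse Erbb2 signal. Values are log2 expression after RMA, so a difference of 1 is a 2-fold difference. Arrays have no counting depth, and their number limits the precision.

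All 7 genes are early-response genes: resting cells transcribe them little, and tumor necrosis factor, interleukin-1, growth factors or tissue injury raise them quickly. Il6 encodes a cytokine that signals through gp130 and Stat3. Cxcl1 and Cxcl2 are ligands of Cxcr2 and attract neutrophils, and Ccl3 attracts monocytes, macrophages and other leukocytes. Ptgs2 is the inducible cyclooxygenase of prostaglandin synthesis, Tnfaip6 encodes a secreted hyaluronan-binding protein of inflamed tissue, and Gem is a small GTPase of the RGK family that binds calcium channel beta subunits. A tumor or gland is a mixture of cells, so fewer cells of a type and less RNA per cell cannot be told apart.

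In RefSeq (GRCm38.p6), Il6 lies on chr5:30013114-30019975, Cxcl1 on chr5:90891245-90893121 and Cxcl2 on chr5:90903899-90905938, the latter close to each other. Ptgs2 lies on chr1:150100031-150108234, Ccl3 on chr11:83647843-83649378, Tnfaip6 on chr2:52038113-52056681 and Gem on chr4:11704447-11714993. Probe positions within the genes are not analysed here. The 250 bases before the transcription start are shown for Il6, Cxcl1 and Cxcl2, because these 3 of the 6 genes with a promoter entry in RefSeq (GRCm38.p6) held a match to an NF-kB motif. The window is chr5:30012864-30013113 for Il6, chr5:90890995-90891244 for Cxcl1 and chr5:90903649-90903898 for Cxcl2, all on the plus strand, and capitals mark every motif match.
Il6: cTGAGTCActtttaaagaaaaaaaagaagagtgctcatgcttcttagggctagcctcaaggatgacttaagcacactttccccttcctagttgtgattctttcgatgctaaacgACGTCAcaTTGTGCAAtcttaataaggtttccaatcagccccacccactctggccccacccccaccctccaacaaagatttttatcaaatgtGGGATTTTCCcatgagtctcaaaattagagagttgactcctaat
Cxcl1: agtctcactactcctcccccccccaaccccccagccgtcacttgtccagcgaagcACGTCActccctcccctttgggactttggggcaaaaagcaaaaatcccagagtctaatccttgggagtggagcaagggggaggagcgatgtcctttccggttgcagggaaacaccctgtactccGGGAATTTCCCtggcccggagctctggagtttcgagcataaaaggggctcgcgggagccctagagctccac
Cxcl2: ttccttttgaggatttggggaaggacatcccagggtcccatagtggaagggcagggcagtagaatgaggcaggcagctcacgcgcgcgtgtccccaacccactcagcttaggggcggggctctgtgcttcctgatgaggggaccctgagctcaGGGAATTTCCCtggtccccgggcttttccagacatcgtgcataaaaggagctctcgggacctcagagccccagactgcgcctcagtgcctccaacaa
The motifs searched on both strands were an NF-kB site, AP-1 (TGANTCA), CRE (TGACGT), C/EBP (TTGCNNAA) and the TATA box (TATAAA). The NF-kB match GGGATTTTCC of Il6 began 44 bases before the start. In Cxcl1 and Cxcl2 the same letters, GGGAATTTCCC, hold overlapping matches on opposite strands, beginning 71 and 97 bases before the start. Il6 also held AP-1, CRE and C/EBP matches, and Cxcl1 held a CRE match. Of the others, Ptgs2 held only a C/EBP match (TTGCGCAA), Tnfaip6 only an AP-1 match (TGAGTCA), and Ccl3 none of the 5 motifs. Among 32851 promoter windows of this length, 7.25% held the NF-kB motif, 6.75% AP-1, 6.47% CRE, 9.56% C/EBP and 12.4% the TATA box. Such matches describe the letters of the window and are not shown to be bound.

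The arrays fell apart by the spread of their values. The interquartile range was at most 2.62 in 34 arrays, the narrow set, and at least 3.04 in the other 188, the wide set. All glands were in the narrow set, with 20 F1BX and 6 F1 tumors, and every FVB tumor was in the wide set. Among F1BX tumors, 84.8% of all probe sets differed between the sets (adjusted p under 0.05, limma), so tumors of the sets are kept apart below. Between these F1BX tumors, Il6 was higher in the narrow set by 0.24 (standard error 0.08, adjusted p = 0.00558, limma), Cxcl2 was higher by 0.37 (standard error 0.13, adjusted p = 0.00491, limma) and Gem fell by 0.41 (standard error 0.13, adjusted p = 0.00193, limma). Cxcl1, Ccl3, Ptgs2 and Tnfaip6 did not pass that test. The Erbb2 levels of 4 tumors lay within the range of the glands (8.26 to 10.48), which includes transgenic glands. They were 092T1 at 8.32, F1_26T1 at 9.72 and 076T1 at 10.31 in the narrow set and 168T1 at 9.32 in the wide set. The labels call them tumors and state no Erbb2 level. Without those tumors of F1BX mice, the differences of Il6, Cxcl2 and Gem between sets still passed. Ptgs2 passed too, lower in the narrow set with a difference of -0.42 (standard error 0.19, adjusted p = 0.0352, limma) in place of -0.10. Which genes passed depended on the normalization: with all F1BX tumors after quantile normalization, Il6 and Cxcl2 did not pass, while Cxcl1 and Ccl3 did.

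**Figure D1:**
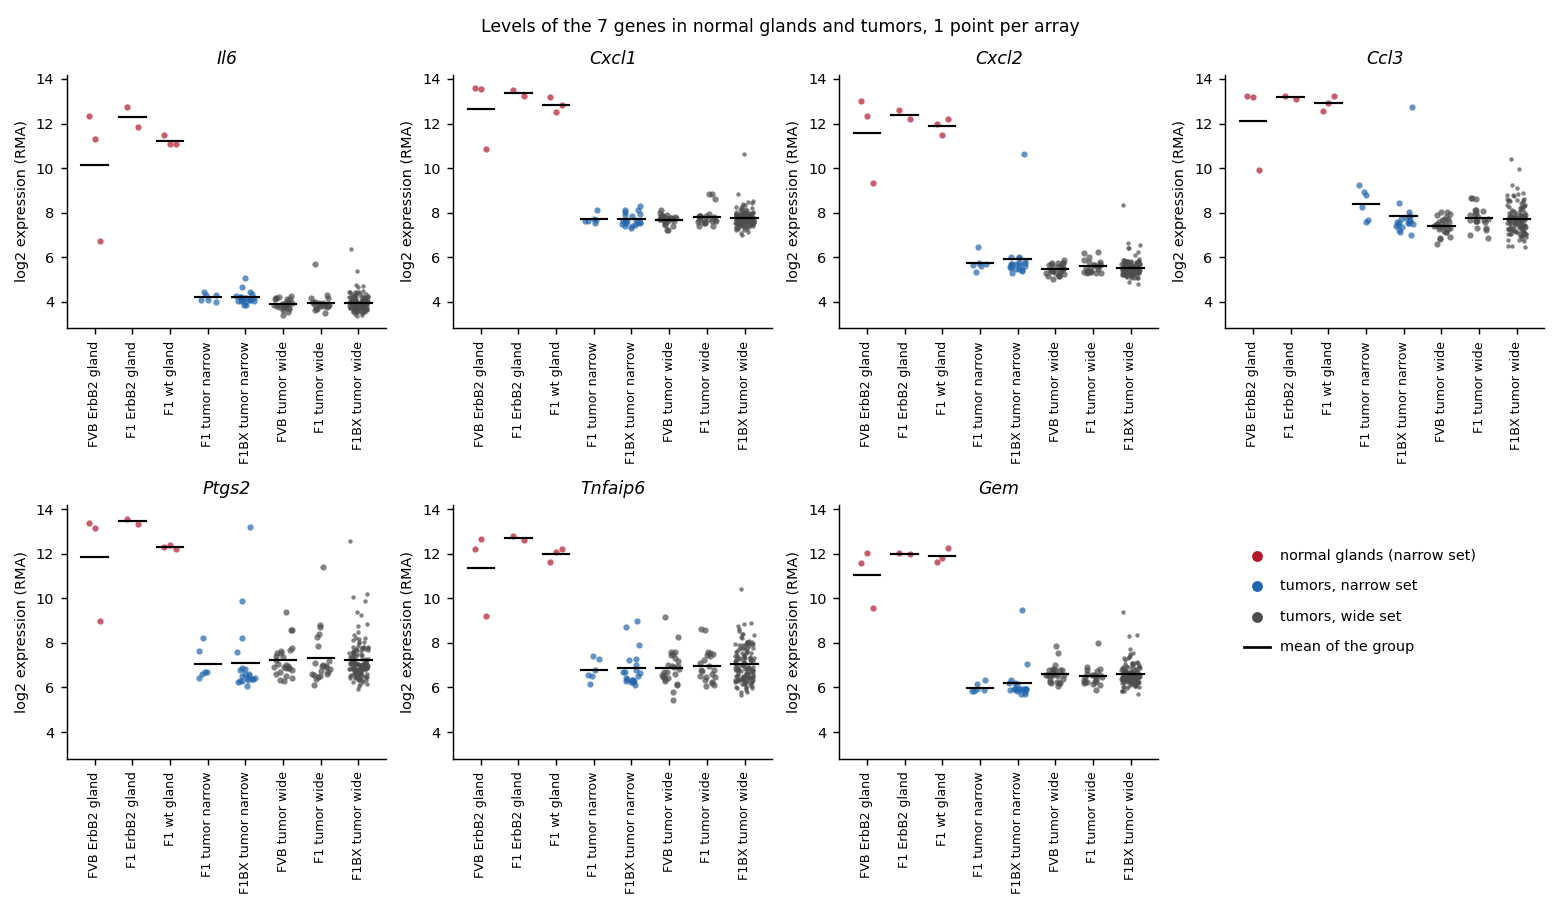
Log2 expression (y axis) of the 7 genes in each gland and tumor array, 1 point per array, by group and array set (x axis), with a line at each group mean. Glands lie near the top except FVB MMTV-ErbB2 gland 3, the lowest red point of each panel, and a few single tumors, such as 092T1 for Ptgs2 at 13.19, rise out of the others.

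Il6 was high in 7 glands and low in every tumor. Its log2 level in the FVB MMTV-ErbB2 glands was 12.35, 11.31 and 6.71, in the F1 MMTV-ErbB2 glands 12.73 and 11.84, and in the F1 wild type glands 11.48, 11.10 and 11.09. In the 26 narrow-set tumors the lowest, median and highest levels were 3.86, 4.14 and 5.09, and in the 188 wide-set tumors they were 3.35, 3.88 and 6.36. Every tumor was thus below the lowest gland, FVB MMTV-ErbB2 gland 3. The gland mean was 11.08 ± 1.86 (SD, n = 8), which is 6.88 above the mean of the narrow-set tumors, and without gland 3 it was 11.70 ± 0.64 (SD, n = 7), or 7.501 above. Without detection calls, whether its signal in tumors exceeds background cannot be told.

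The neutrophil chemokines behaved alike in the glands. Cxcl1 was at 13.61, 13.54 and 10.86 in the FVB MMTV-ErbB2 glands, 13.51 and 13.24 in the F1 MMTV-ErbB2 glands, and 13.17, 12.51 and 12.85 in the F1 wild type glands. Its narrow-set tumors lay at 7.33, 7.63 and 8.28 (lowest, median and highest) and its wide-set tumors at 7.01, 7.71 and 10.63. As for Il6, no tumor reached any gland, although 084T1 in the wide set, at 10.63, came close to gland 3. Cxcl2 was at 12.996, 12.33 and 9.34 in the FVB MMTV-ErbB2 glands, 12.59 and 12.20 in the F1 MMTV-ErbB2 glands, and 11.98, 11.46 and 12.22 in the F1 wild type glands. Its tumors lay at 5.29, 5.67 and 10.63 in the narrow set and at 4.81, 5.48 and 8.34 in the wide set. Here 1 tumor, 159T1, stood above gland 3, and none reached the other 7 glands.

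Ccl3, which attracts monocytes and macrophages, was at 13.26, 13.19 and 9.90 in the FVB MMTV-ErbB2 glands, 13.23 and 13.12 in the F1 MMTV-ErbB2 glands, and 12.57, 12.92 and 13.25 in the F1 wild type glands. Narrow-set tumors lay at 6.99, 7.61 and 12.73 and wide-set tumors at 6.47, 7.64 and 10.40. The highest tumor of the narrow set, 159T1, was within the range of the 7 high glands, and 2 wide-set tumors, 187T1 and 187T2, were at or above gland 3.

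Ptgs2 had the widest range among tumors of the 7 genes in both sets. It was at 13.39, 13.14 and 9.002 in the FVB MMTV-ErbB2 glands, 13.57 and 13.34 in the F1 MMTV-ErbB2 glands, and 12.32, 12.40 and 12.22 in the F1 wild type glands. Narrow-set tumors lay at 6.07, 6.60 and 13.19, and wide-set tumors at 5.91, 6.99 and 12.59. Of the tumors, 2 in the narrow set and 8 in the wide set were at or above gland 3, and 1 in each set, 092T1 and 168T1, was at or above the lowest of the other 7 glands. Its SD among wide-set tumors was 0.90, larger than for 98.6% of all probe sets, against 0.35 for Il6 (larger than for 74.0%).

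Tnfaip6 was at 12.23, 12.65 and 9.22 in the FVB MMTV-ErbB2 glands, 12.81 and 12.63 in the F1 MMTV-ErbB2 glands, and 11.63, 12.06 and 12.23 in the F1 wild type glands. Its tumors spread widely, at 6.13, 6.61 and 8.98 in the narrow set and at 5.45, 6.87 and 10.41 in the wide set, where 187T2 alone was above gland 3. Gem, the RGK GTPase, was at 11.59, 12.05 and 9.55 in the FVB MMTV-ErbB2 glands, 12.02 and 11.9997 in the F1 MMTV-ErbB2 glands, and 11.62, 11.82 and 12.28 in the F1 wild type glands. Its tumors lay at 5.69, 5.92 and 9.49 in the narrow set and at 5.71, 6.53 and 9.37 in the wide set, and none reached a gland. Over the 7 genes the mean of the glands exceeded that of the narrow-set tumors by 4.71 for Ccl3 up to 6.88 for Il6, and without gland 3 by 5.11 for Ccl3 up to 7.501 for Il6. Every gland lay above every narrow-set tumor for Il6, Cxcl1, Tnfaip6 and Gem, a pattern of 1.76% of all probe sets, and above every tumor for Il6, Cxcl1 and Gem, a pattern of 0.565%. The genes were chosen on this contrast, so nothing is read from those counts.

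FVB MMTV-ErbB2 gland 3 was the lowest gland for all 7 genes, by 1.65 for Cxcl1 up to 4.38 for Il6. Of all genes, Il6 had the second largest distance below the other 7 glands, after Slc44a1 with 4.67. For 6 of the 7 genes the distance was at least 2, which held for 3.85% of all probe sets, and 27.5% of all probe sets were lowest in this gland. The 7 genes were chosen as far higher in glands than in tumors, so nothing is read from these shares. The array itself stood apart: its interquartile range of 1.86 was below the 2.20 to 2.36 of the other glands, and 48.1% of all probe sets were highest in it. After quantile normalization, which gives every array the same distribution, gland 3 was still the lowest for all 7 genes, with a distance of 5.10 for Il6 and 2.26 for Ptgs2. The distance was then below 2 for the others: 1.64 for Ccl3, 1.44 for Tnfaip6, 1.13 for Cxcl2, 1.02 for Gem and 0.88 for Cxcl1. Its Erbb2 level of 10.20 lay among those of the other MMTV-ErbB2 glands (9.05 to 10.48).

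In the deposited values, other early-response genes were low in that gland too, and its neutrophil markers were high. The quantile-normalized values above cover the 7 genes only, not these lists. The NF-kB, TNF and IL-1 list was lowest in gland 3 for 13 of 17 genes and the immediate early list for 8 of 10. Of all probe sets, 27.5% were lowest there. Neither list had a gene that was highest there. Among 11 neutrophil markers 9 were highest in gland 3 and none lowest, against the 48.1% of all probe sets. Highest there too were 4 of 6 adipocyte markers (1 lowest) and 4 of 5 RGK and calcium channel genes (1 lowest). S100a9, a calcium-binding protein of neutrophils, was at 10.99 in gland 3 and between 6.42 and 7.56 in the others, and Camp, a granule protein, was at 8.79 against 6.68 to 7.16. Some margins were small: Elane was at 6.73 against at most 6.69 in the other glands, and Mmp8 at 6.27 against at most 5.83. The mean of the neutrophil list was 8.03 in gland 3 and 6.61 to 7.10 in the others. The macrophage list had its lowest mean there, 7.87 against 8.27 to 9.17, and so did the fibroblast list, 9.80 against 10.52 to 11.23, although 3 of its 8 genes, the collagens Col1a1 and Col3a1 and the surface protein Thy1, were highest in gland 3 and 4 were lowest. The part of these cells, of RNA quality or of the array in the 7 low values was not tested.

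**Figure D2:**
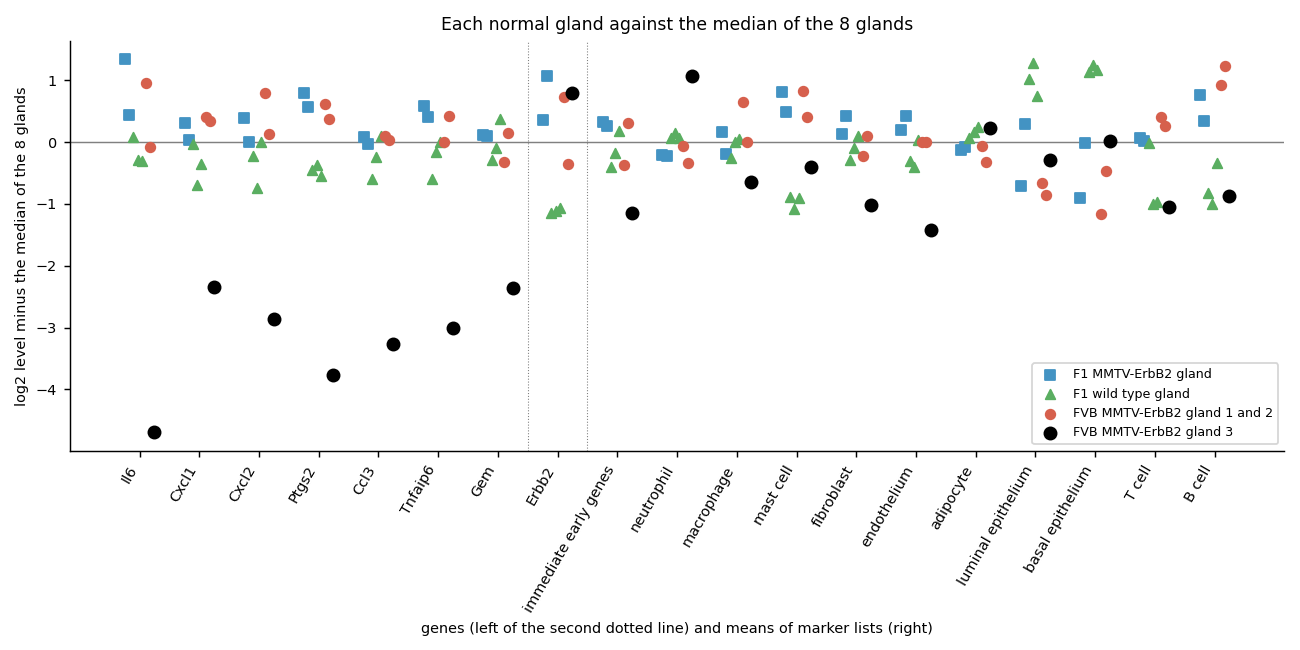
Log2 level of each of the 8 glands minus the median of the glands (y axis) for the 7 genes, Erbb2 and the means of lists of other genes (x axis), 1 symbol per gland. Gland 3 of the FVB MMTV-ErbB2 group (black) lies between -4.69 for Il6 and -2.34 for Cxcl1 for the 7 genes and at 1.07 for the neutrophil list.

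The glands offer the only comparison of the transgene within a background. Ptgs2 was 13.57 and 13.34 in F1 MMTV-ErbB2 glands and 12.32, 12.40 and 12.22 in F1 wild type glands, with no overlap, a difference of 1.14. In the fit of all 8 glands its standard error was 1.12 (95% interval -1.42 to 3.69), and neither this gene nor any other probe set was called at an adjusted p under 0.05 (limma, 0% of 35556, with 1726 at an unadjusted p under 0.05). That fit shares 1 spread over the glands, gland 3 included, although gland 3 is in neither group of this comparison. Each gland was left out in turn, and the fit without gland 3 is singled out with its low values known. Without gland 3, 1060 probe sets were called (2.98%), among them Ptgs2 (standard error 0.16, adjusted p = 0.0150, limma) and none of the other 6 genes, of which Tnfaip6 was nearest with a difference of 0.75 (standard error 0.22, adjusted p = 0.115, limma). Both F1 MMTV-ErbB2 glands lay above all 3 F1 wild type glands for Il6, Cxcl1, Ptgs2 and Tnfaip6, 4 of 7 genes, against 17.3% of all probe sets. Cxcl2, Ccl3 and Gem overlapped between these glands. Cell markers differed between the same glands: the mast cell list had means of 8.17 and 7.86 against 6.47, 6.29 and 6.47, the B cell list 9.15 and 8.74 against 7.57, 7.39 and 8.05, the luminal list 10.39 and 11.39 against 12.12, 12.37 and 11.84, and the basal epithelial list 8.54 and 9.43 against 10.57, 10.69 and 10.61. Their part in the difference of Ptgs2 was not tested.

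Between F1 and FVB MMTV-ErbB2 glands no probe set was called (limma, 0%, with 481 at an unadjusted p under 0.05). The largest differences among the 7 genes were 2.16 for Il6 (standard error 1.37, 95% interval -0.97 to 5.29) and 1.61 for Ptgs2 (standard error 1.12, 95% interval -0.95 to 4.16), each with an adjusted p of 0.817 from limma. Without gland 3 they shrank to 0.45 and 0.19, and Cxcl1, Cxcl2 and Ccl3 turned to -0.20, -0.27 and -0.05.

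Among tumors, no gene of the 7 differed between genetic backgrounds beyond the threshold. Wide-set tumors were compared with the mouse as a random block, since 38 mice gave several of the 188 arrays and 93 gave 1. At an adjusted p under 0.05 (limma), 12.3% of all probe sets were called between F1 and FVB tumors, 6.74% between F1BX and FVB tumors and 3.65% between F1BX and F1 tumors, and none of the 7 genes in any of them, with or without tumor 168T1. Ccl3 came nearest. Its lowest, median and highest levels were 6.59, 7.42 and 8.05 in FVB, 6.86, 7.70 and 8.66 in F1, and 6.47, 7.66 and 10.40 in F1BX tumors, so the groups overlapped widely. It was higher in F1 than FVB tumors by 0.36 (standard error 0.17, 95% interval 0.02 to 0.69, adjusted p = 0.145, limma) and in F1BX than FVB tumors by 0.29 (standard error 0.12, 95% interval 0.04 to 0.53, adjusted p = 0.147, limma). These intervals are not adjusted for the number of probe sets, and the comparisons share the FVB tumors.

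For Il6 the interval was -0.14 to 0.27 between F1 and FVB tumors, and for Ptgs2 it was -0.46 to 0.60. Il6 had medians of 3.86, 3.86 and 3.90 in FVB, F1 and F1BX tumors of the wide set, and Ptgs2 of 7.00, 6.93 and 7.02. Cxcl1, Cxcl2, Tnfaip6 and Gem likewise missed the threshold in each comparison, with differences from -0.13 for Gem to 0.18 for Tnfaip6. The contrast of F1BX with F1 tumors did not differ detectably between the array sets for any of the 7 genes (limma interaction, 0% of probe sets called, 2181 at an unadjusted p under 0.05), and the estimate farthest from 0 was -0.49 for Ccl3 (standard error 0.35).

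**Figure D3:**
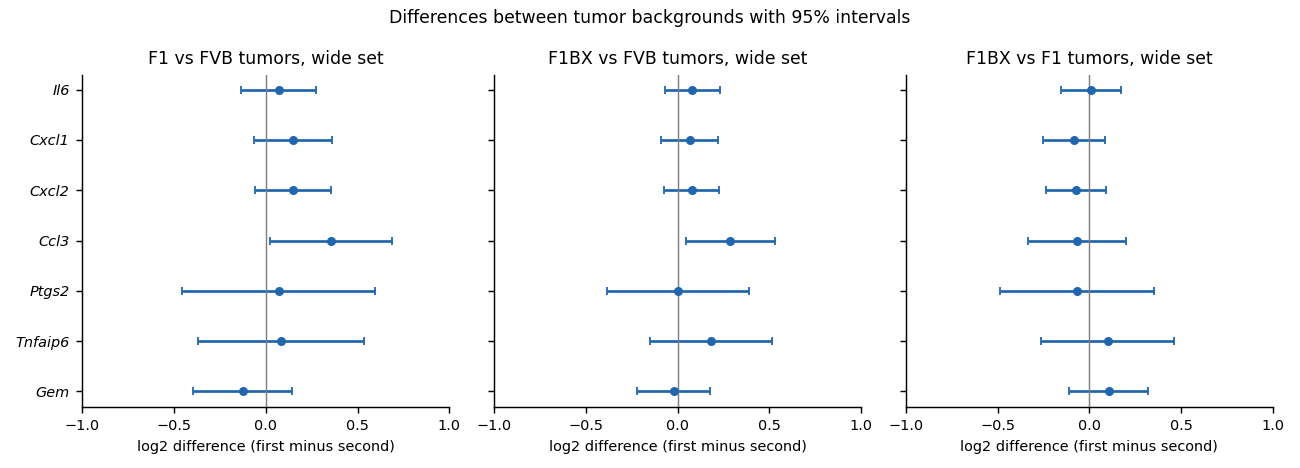
Log2 differences (x axis) of the 7 genes (y axis) between tumor backgrounds in the wide set, with 95% intervals from limma that are not adjusted for the number of probe sets. Intervals of Ccl3 against FVB tumors lie just above 0, and all others span 0.

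Neighbours of these genes in their pathways did differ between backgrounds in part. Given here are the lists of IL-6 family signaling, NF-kB, TNF and IL-1 signaling, chemokines and macrophage markers, and the other lists are left out. Over all probe sets the split of rises and falls moved with centring on the array median, as given in the last section. Of 14 genes of IL-6 family signaling, 4 rose and 1 fell in F1 against FVB tumors (median difference 0.09, against -0.02 over all probe sets, of which 12.3% were called in either direction). Lif, a cytokine of the family, rose by 0.68 (standard error 0.12, adjusted p = 1.19e-05, limma), Osmr, the oncostatin M receptor, by 0.55, and Stat3 by 0.26, while the kinase Jak1 fell by 0.77. In F1BX against FVB tumors, where 6.74% of all probe sets were called, 3 rose and 1 fell, again with Lif at 0.38 and Jak1 at -0.48. Of 17 genes of NF-kB, TNF and IL-1 signaling 6 rose in F1 against FVB tumors (median 0.18), with Il1b at 0.55 and Tnfaip3, an inhibitor of NF-kB, at 0.31. Of the neutrophil chemokines and receptors none of 10 passed there, and of 9 CC chemokines and receptors only Ccr2 did, higher by 0.65, a share near the 12.3% of all probe sets. Macrophage markers passed for 3 of 10 genes, all higher, and Adgre1 was higher by 0.49; their part in these differences was not tested.

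Tumors with raised levels were those above the third quartile plus 3 interquartile ranges of a gene within their array set, a bound that 11 tumors passed for at least 1 gene, 5 in the narrow and 6 in the wide set. Of the 11, 7 were raised for several genes. They are given singly, and no test was made of them. No tumor passed the bound for Tnfaip6, and for Ptgs2 the bound of the narrow set, 8.22, ran between 035T1R at 8.22 and F1_27T1 at 8.21, so the class has no sharp edge there.

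In the narrow set, 092T1 had Ptgs2 at 13.19, Gem at 9.49 and Il6 at 5.09, with Tnfaip6 at 8.98, the highest of its set. Its Ptgs2 was 6.60 above the set's median. Its Erbb2 of 8.32 was within the range of the glands, its Cxcl1 (7.63) and Ccl3 (7.87) were not raised, and its macrophage and fibroblast lists, at 10.19 and 10.86, were the highest of the narrow-set tumors. The tumor 159T1 had the other pattern: Ccl3 at 12.73, Cxcl2 at 10.63 and Ptgs2 at 9.86, or 5.13, 4.96 and 3.27 above the median, with Gem (5.91) and Tnfaip6 (6.27) near or below it and Erbb2 at 12.32. Its neutrophil list, 7.41, was the highest of the narrow-set tumors. The other 3 passed for 1 gene each: F1_26T1 for Cxcl2 at 6.44, 025T1 for Gem at 7.03, and 035T1R for Ptgs2. The array of that tumor in the wide set had a higher Ptgs2, 8.49, yet was not raised there, since the bound of the wide set was 10.19.

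In the wide set, 084T1 was raised for Cxcl1 (10.63) and Cxcl2 (8.34), 2.92 and 2.87 above the medians, and its Il6, Ptgs2 and Tnfaip6 were within 0.17 of them. The tumor 168T1 resembled 092T1, with Ptgs2 at 12.59 and Gem at 9.37 and the lowest Erbb2 of the 6 raised wide-set tumors, 9.32. Il6 was raised in 046T1 (6.36), F21T3 (5.71) and 187T2 (5.38), and these also had Ptgs2 at 9.87, 11.40 and 10.22. From mouse 187, T1 and T2 were raised for Ccl3 (9.97 and 10.40) and Gem (8.31 and 8.36), with macrophage lists at 10.76 and 10.80, the latter the highest of the 188. The third tumor of that mouse, 187T3, was not raised, with Ccl3 at 7.87, Gem at 6.08 and Ptgs2 at 6.24. Of mouse F21, T3 had Ptgs2 at 11.40, while T2 and T4 were at 6.60 and 6.75.

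**Figure D4:**
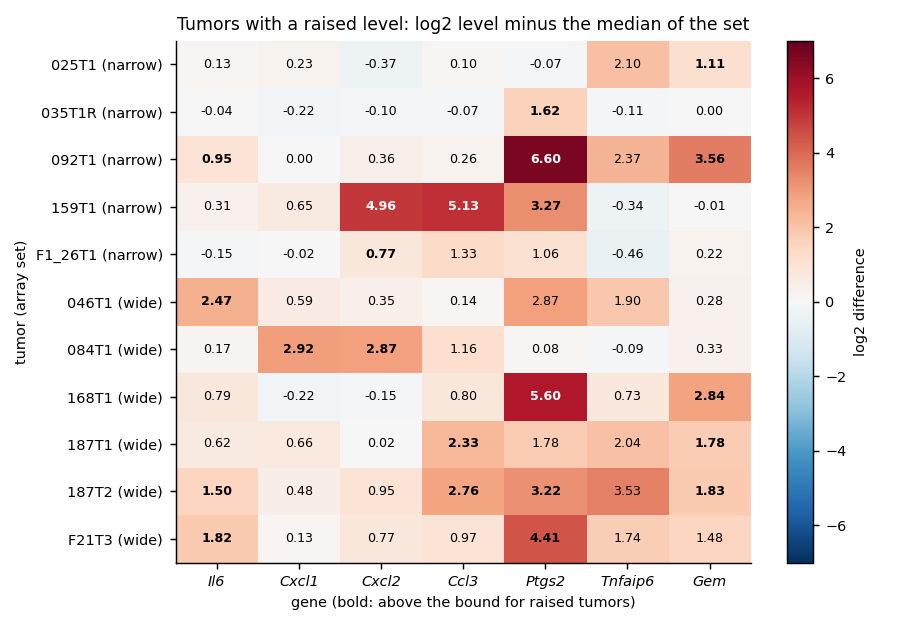
Log2 level minus the median of the tumor's own array set (colour and number) for the 7 genes (x axis) in the 11 tumors with a raised level (y axis), with values above the bound in bold. Ptgs2 is 6.60 above the median in 092T1, while Cxcl2 and Ccl3 are raised in 159T1 and Cxcl1 with Cxcl2 in 084T1.

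Tumors of the same mouse were compared next, as a description with no test. Over the 188 wide-set arrays the correlation within mice was 0.45 for Cxcl1, 0.25 for Ccl3 and 0.23 for Cxcl2, against 0.50 for Erbb2 and a consensus of 0.09 over probe sets sampled from the whole array. It was 0.08 for Tnfaip6, 0.05 for Gem, 0.00 for Ptgs2 and -0.05 for Il6. By their names, 035T1 and 246T1 were measured in both sets. Ptgs2 of 035T1 was 8.49 and 8.22, that of 246T1 was 6.503 and 6.43, and Il6 was 3.89 and 4.10 in the former and 4.00 and 4.07 in the latter. The largest gap between repeats was in Tnfaip6 of 246T1, 7.75 in the wide and 6.70 in the narrow set.

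Across tumors, some pairs of the 7 genes moved together. With 1 array per mouse, which leaves out 57 of the 188 wide-set arrays and none of the 26 of the narrow set, 49 relations were computed in each set (Pearson's r, two-sided permutation tests of 100000 resamples, adjusted over the 49). Tumors of all backgrounds in a set were pooled with no term for background, so r mixes differences between and within backgrounds. Of 21 pairs among the genes, 13 passed in the wide set, all positive, and 11 of them passed for Spearman's rho as well. The share of pairs of other genes that would pass was not computed, so the count is not read as particular to these genes. Without the 2 tumors farthest from the median of the first gene of a pair, 10 passed. Cxcl1 and Cxcl2 had the highest r, 0.61 (rho 0.30, adjusted p = 4.9e-05 and 0.00283), and without the 2 tumors farthest from the median of Cxcl1 it was 0.31. Cxcl1 passed with no other gene of the 7, while Cxcl2 also passed with Ccl3 (r 0.27, rho 0.23) and with Ptgs2 (r 0.20, rho 0.38). Without the 2 tumors farthest from the median of Cxcl2, its r with Ccl3 was 0.16 and no longer passed (adjusted p = 0.112, permutation test). Its r with Ptgs2 was then 0.23 and still passed. Cxcl1's r with Ptgs2 was 0.01 and with Gem -0.02.

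Each pair among Il6, Ccl3, Ptgs2, Tnfaip6 and Gem passed for r, and differences between correlations were not tested. Ccl3 with Tnfaip6 (rho 0.17) and Ccl3 with Gem (rho 0.15) did not pass for rho. Neither of these passed without the 2 tumors farthest from the median of Ccl3, with an r of 0.14 and 0.17. Ptgs2 and Gem had an r of 0.55 (rho 0.29, adjusted p = 4.9e-05 and 0.00283), 0.31 without the 2 farthest tumors, 168T1 among them, and Tnfaip6 and Gem an r of 0.52 (rho 0.53, adjusted p = 4.9e-05 and 8.17e-05), 0.49 without them. Il6 had an r of 0.39 with Ptgs2, 0.36 with Tnfaip6 and 0.28 with Gem, and Ccl3 had an r from 0.22 with Tnfaip6 to 0.29 with Ptgs2. In the narrow set 7 of 21 pairs passed for r and none for rho. Cxcl2 and Ccl3 had an r of 0.91 there (rho 0.45, adjusted p = 0.00217 and 0.0833), which fell to 0.36 without the 2 farthest tumors, 159T1 among them, and Ptgs2 and Gem an r of 0.79 (rho 0.33, adjusted p = 0.0418 and 0.214), which fell to 0.18. The narrow-set relations of these pairs thus no longer passed without 2 tumors. Of the 21, only Il6 and Ccl3 passed without the farthest tumors, with an r of 0.58.

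Marker lists moved with several of the genes. How many other genes follow the same lists as closely was not counted, so the values are not read as particular to these genes. In the wide set, Gem had an r of 0.61 with the macrophage list and 0.60 with the fibroblast list, Ptgs2 of 0.46 and 0.52, and Tnfaip6 of 0.44 and 0.48 (each adjusted p = 4.9e-05, and each still past the threshold for rho and without the 2 farthest tumors). Ccl3 followed the macrophage list with 0.49 (rho 0.34). Il6 had lower values, 0.27 and 0.29. The neutrophil list passed with Cxcl1 alone, with an r of 0.20 (rho 0.22, adjusted p = 0.0493 and 0.0288), which after quantile normalization was 0.16 and no longer passed (adjusted p = 0.109, permutation test), and not with Cxcl2 (0.16). The T cell list was negative with Ptgs2, -0.27 (rho -0.35), and positive with Ccl3, 0.23 (rho 0.18, which did not pass). In the narrow set the neutrophil list had an r of 0.67 with Cxcl2 and 0.68 with Ccl3 (adjusted p = 0.000857 and 0.00331), which became 0.60 and 0.42 without the 2 tumors of the most extreme list means, no longer past the threshold.

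**Figure D5:**
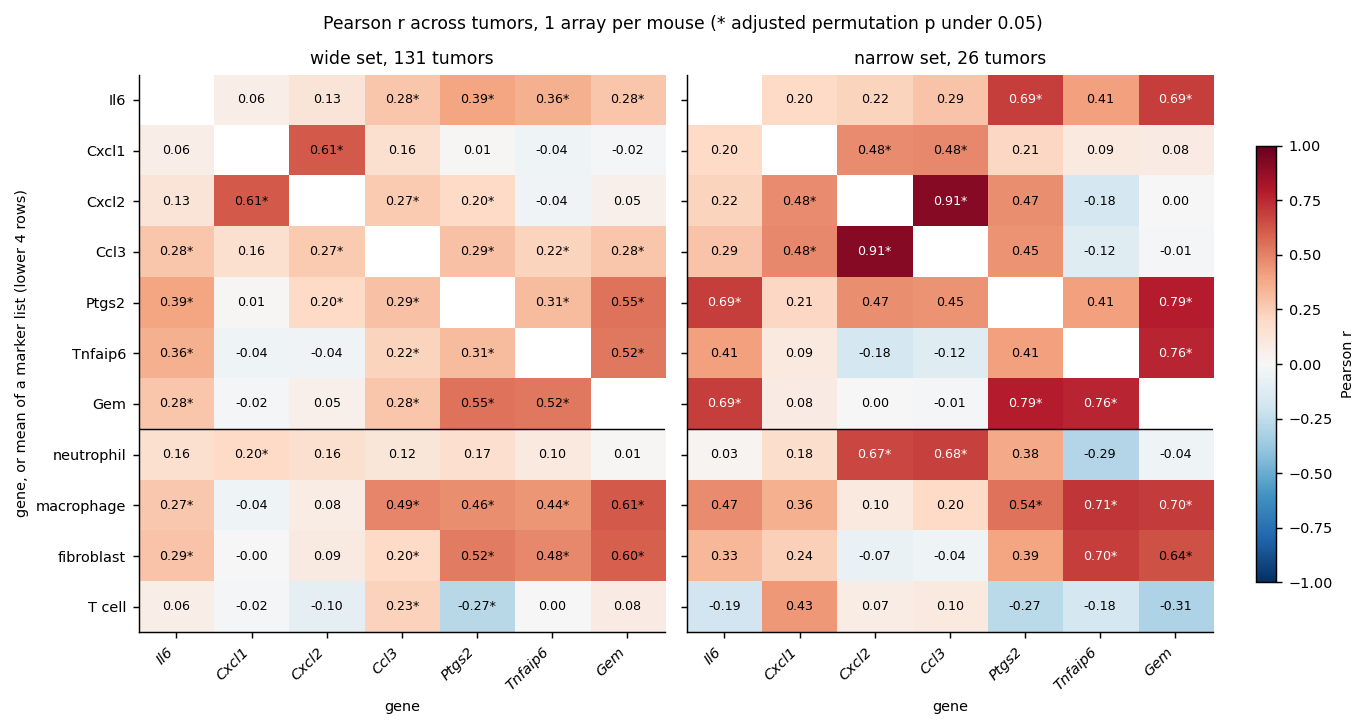
Pearson's r (colour and number) between the 7 genes (x axis) and the same genes or the means of 4 marker lists (y axis), over wide-set tumors (left) and 26 narrow-set tumors (right) with 1 array per mouse; a star marks an adjusted permutation p under 0.05. Cxcl1 and Cxcl2 form a pair at 0.61 in the wide set, and Gem, Ptgs2 and Tnfaip6 follow the macrophage and fibroblast lists.

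The genes whose levels were most like each of the 7, by Pearson's r over the same wide-set tumors, are given as a description. For Il6 they were Chil4 (0.46), Has1 (0.46) and Ccl7 (0.44), with Has1 a hyaluronan synthase and Ccl7 a monocyte chemokine. For Cxcl1 they were Cxcl2 (0.61), Ccl20 (0.60) and Git2 (0.59), and for Cxcl2 they were Cxcl1 (0.61), Zfp655 (0.58) and Sult1e1 (0.56). Ptgs2 was most like Plaur (0.75), the urokinase receptor, Has2 (0.74), another hyaluronan synthase, and Sh3pxd2b (0.72). Ccl3 was most like Cd180 (0.76), Milr1 (0.73) and Ch25h (0.72), of which Cd180 is a receptor of B cells and myeloid cells. Tnfaip6 was most like Tmem100 (0.65), Galnt16 (0.58) and Tnxb (0.57), and Gem like the transcription factor Zeb1 (0.78), the plasminogen activator Plat (0.77) and the kinase Lrrk2 (0.77). Il6 had the lowest of these values.

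The other genes of the same pathways were compared between the 26 narrow-set tumors and the 8 glands, where 12.1% of all probe sets passed an FDR of 0.005 and a 2-fold difference (limma) and 4.76% passed as lower in tumors. Of 17 genes of NF-kB, TNF and IL-1 signaling 13 fell in tumors and none rose (median difference -2.49, against -0.09 over all probe sets). Tnfaip3 had a difference of -4.09, the adhesion molecule Icam1 -3.69, Il1b -3.13 and Tnf -2.72, while Rela, a subunit of NF-kB, was at -0.94 and missed the 2-fold threshold. Of 10 immediate early genes 8 fell (median -2.53), with Atf3 at -4.14 and Fosb at -4.13. These lists and those of the next paragraphs were drawn up with the results of the 7 genes known. Some of their genes, such as Ptx3, Has1 and Ccl2, are in the paper's own signature of tumors against glands from the same data. The counts are thus a description and no independent support. With all 214 tumors in place of the narrow set, 12 NF-kB, TNF and IL-1 genes fell and 1 rose, and 8 immediate early genes fell.

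Of the chemokine lists, 5 of 10 neutrophil chemokines and receptors fell, none rose (median -1.09), with Cxcl5 at -3.24, Cxcl3 at -2.22 and the neutrophil growth factor Csf3 at -2.76, while the receptors Cxcr1 (-0.47) and Cxcr2 (-0.66) did not pass, and with all 214 tumors 8 of 10 fell. Of 9 CC chemokines and receptors 4 fell (median -0.68): Ccl2 at -4.69, Ccl7 at -4.17, Ccl5 at -3.65 and Ccl4 at -2.91. The receptors Ccr1 and Ccr2 did not pass. Of 14 genes of IL-6 family signaling 5 fell (median -0.72), among them Lif at -2.75 and the inhibitor Socs3 at -2.61, while the receptor genes Il6ra (-0.12) and Il6st (-0.87) did not.

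Of 14 genes around Ptgs2 only the synthase Ptges, at -2.32, and the receptor Ptger4, at -1.59, fell (median -0.17), and with all 214 tumors 3 fell and 2 rose. Of 9 hyaluronan genes and partners of the Tnfaip6 protein 4 fell (median -1.06), namely Ptx3 at -5.02, Has1 at -3.31, Has2 at -2.85 and Itih5 at -2.21. Of 5 relatives and partners of Gem only the RGK GTPase Rrad fell, with a difference of -1.58 (median -0.22).

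Markers of other cells differed between the same tumors and glands. All 4 T cell and all 4 B cell markers fell, as did 6 of 8 fibroblast, 5 of 6 endothelial, 4 of 6 basal epithelial and 4 of 6 mast cell markers. The mean of the T cell list was 6.31 to 6.75 in tumors and 7.62 to 9.07 in glands, with no overlap, and that of the mast cell list 5.51 to 6.49 against 6.29 to 8.20. Of 10 macrophage markers 1 rose and 1 fell, and the list means overlapped, 7.60 to 10.19 in tumors and 7.87 to 9.17 in glands. Of 11 neutrophil markers only S100a9 fell, and without gland 3 none did, while 2 did without 092T1, F1_26T1 and 076T1 and 4 did with all 214 tumors. The part of these cells in the levels of the 7 genes was not tested.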

How the data were processed

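RNA of 222 samples (Trizol extraction) had been hybridised to Affymetrix mouse gene 1.0 ST arrays. The authors normalized the arrays by RMA and deposited log2 values for 35556 probe sets, used here as deposited. Probe sets were named from the platform annotation (21789 with 1 symbol, 1621 with several, 12146 with none), updated to RefSeq symbols, and 160 of the 170 genes of the lists were matched. The 7 genes, the lists and the tests were chosen with earlier results of these data known. Groups followed the labels, also for 051T1 (labelled F1) and 063T1 (labelled FVB), whose names have the form of F1BX tumors. F1_6T1 and F06T1, and F1_27T1 and F27T1, were counted as of different mice, although their names leave this open. Limma 3.58.1 in R 4.3.3 was fitted over all probe sets with Benjamini-Hochberg adjustment, with the mouse as a random block for tumors. Genes were named by fixed rules: the 7 genes, the listed genes, the 3 genes most like each, and those lowest in gland 3. Named list genes are examples of those called, with some that were not. The scripts were tested on simulated data. Alternatives were all tumor arrays, 1 array per mouse, quantile normalization, median centring, a filter on low signal, the spread of the narrow set, a replicate block, trended robust variances and leaving out each gland. SAM, the test of the methods, was not run.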

Additional observations from a re-analysis of the deposited data

Results flagged for a closer look

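Among the 8 normal glands, FVB MMTV-ErbB2 gland 3 lay apart from the others for each of the 7 genes. The gap to the next gland, as a share of the range of the 8 glands, was 0.727 for Il6, 0.601 for Cxcl1, 0.581 for Cxcl2, 0.706 for Ptgs2, 0.795 for Ccl3, 0.671 for Tnfaip6 and 0.749 for Gem, against a critical value of 0.526. These are 7 readings of the same gland. Among the 6 narrow-set F1 tumors, the highest tumor lay apart for Cxcl1, F1_27T1 at 8.11 with a share of 0.652, and for Cxcl2, F1_26T1 at 6.44 with a share of 0.658, against a critical value of 0.625. Erbb2 of F1_26T1 was within the range of the glands. Chance flags about 1 in 20 groups.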

How the results depend on the processing

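With 8 glands, 2 or 3 of a kind, differences in the glands have wide intervals. Counts of probe sets called moved as follows. Between F1BX and FVB tumors, 1 array per mouse gave 1414 in place of 2398, and between F1BX and F1 tumors all arrays with no set in the fit gave 123 in place of 1297. In the glands, the spread of the narrow set gave 4 between backgrounds and 327 between transgenic and wild type F1 glands, in place of 0 each, and leaving out 1 gland gave 0 to 1060 for the latter, where gland 3 gave 1060 and FVB MMTV-ErbB2 gland 2 gave 1. Between narrow-set tumors and glands, all 214 tumors gave 10026 and an adjusted p under 0.05 without the fold gave 18528, in place of 4311; leaving out 1 gland gave 4124 to 4456, and leaving out 092T1, F1_26T1 and 076T1, chosen after seeing the data, gave 4557. The interaction of background and array set gave 4 after quantile normalization in place of 0. In the narrow set 7 pairs of the genes passed in place of 13. The split of higher against lower calls moved with centring on the array median: 1711 against 3545 in place of 2055 against 2302 for F1 against FVB tumors, and 960 against 1979 in place of 1274 against 1124 for F1BX against FVB tumors; without the array set in the fit these were 1056 against 2463 and 666 against 1536.

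Signs turned mostly where a difference was near 0. With all arrays and no set, Ptgs2 was -0.016 (F1 against FVB), -0.0041 (F1BX against FVB) and 0.012 (F1BX against F1), and Il6 -0.0027 (F1BX against F1). With 1 array per mouse, Ptgs2 was -0.049 (F1 against FVB) and 0.12 (F1BX against F1), Gem 0.073 (F1BX against FVB), and the interaction was -0.050 for Ptgs2 and -0.0071 for Gem. Ptgs2 (F1BX against FVB) was -0.0063 after quantile normalization and -0.021 after centring, and Il6 (F1BX against F1) -0.00033 after quantile normalization. Without 168T1, chosen after seeing the data, Ptgs2 was -0.041 (F1BX against FVB), and without all 4 tumors of low Erbb2 the interaction was -0.059 for Ptgs2 and -0.031 for Gem. Leaving out 1 gland, the difference between ErbB2 glands of the 2 backgrounds ran from -0.20 to 1.17 for Cxcl1, -0.27 to 1.56 for Cxcl2 and -0.047 to 1.63 for Ccl3, lowest without gland 3, and that of Gem between F1 glands from -0.039 to 0.29. Between the array sets, quantile normalization turned Cxcl1 to 0.25 (adjusted p = 0.00723, limma), took Il6 (0.10) and Cxcl2 (0.10) below the threshold and Ccl3 (0.37, adjusted p = 0.0312, limma) above it. In the narrow set r was -0.12 for Ccl3 with Tnfaip6, -0.011 with Gem and -0.041 with the fibroblast list. The causes of these changes were not tested.

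Glands of different kinds carry the same replicate numbers, which need not pair them: deviations of glands with the same number correlated between -0.19 and 0.39. With the replicate number as a block, 0 probe sets were called between gland kinds, with 321 and 1601 at an unadjusted p under 0.05, and Ccl3 and Gem turned to -0.20 and -0.18 between F1 MMTV-ErbB2 and F1 wild type glands. The mean of several probe sets per gene was not run, since each gene had 1.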
